A study of Mus musculus with 11 samples.

Results

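The 10 genes described here are heat shock genes read in RNA-seq of mouse LSKs, the Lin-Sca1+Kit+ fraction of bone marrow in which hematopoietic stem cells and multipotent progenitors are found. They are Hspa1a, Hspa1b, Hspa8, Hsph1, Dnajb1, Hsp90aa1, Hsp90ab1, Hspd1, Hspe1, and Hsf1. All 10 were found by symbol among the 12647 genes of the count table, and all 10 were among the 12625 genes that passed the filter on low counts. The set was chosen by the low Hspa1a values in p53-/- libraries, so the values of these genes in p53-/- against p53+/+ are a description, with no p-value. The same holds in every comparison for Hspa1a and for Hspa1b, which is nearly identical to it. Where calls over all 10 genes are counted, they include calls fixed by that choice and are no support for a difference. Of the 10, Hspd1 and Hspe1 encode mitochondrial chaperonins and Hsf1 encodes a transcription factor, so the set is wider than cytosolic chaperones.

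LSKs of 3 genotypes were sequenced, with 3 libraries per genotype and no treatment. The p53+/+ mice carry the humanized p53 knock-in (HUPKI) allele, which encodes a chimeric human and mouse p53 protein. The p53R248W/+ mice are heterozygous for R248W, a substitution in the DNA-binding domain, introduced into the HUPKI allele under the mouse Trp53 promoter, and p53-/- mice lack p53. The p53-/- allele, whether those mice were otherwise on the HUPKI background, and whether their libraries were made together with the others are not given in the sources used here, so such differences and the loss of p53 cannot be told apart. All mice were young and tumor free, and the labels give C57BL/6 as the strain of every library. The labels do not say whether libraries of a genotype came from separate mice, so p-values measure only the spread between these libraries.

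Heat shock proteins are chaperones that bind unfolded proteins and help them fold, refold, or be degraded. HSF1 is held inactive by chaperones in unstressed cells. When unfolded proteins accumulate, HSF1 forms trimers, binds heat shock elements (inverted repeats of the unit GAA), and raises transcription of chaperone genes. The inducible HSP70 genes Hspa1a and Hspa1b are near silent in many unstressed cells and respond sharply to heat and to handling of cells, whereas Hspa8 and Hsp90ab1 are made all the time. HSP90 proteins complete the folding of many kinases and transcription factors, and mutant p53 proteins are among their known clients.

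Hspa1a (NCBI gene 193740) and Hspa1b (NCBI gene 15511) lie side by side on the minus strand of chromosome 17 of GRCm38, at chr17:34969190-34972156 and chr17:34956436-34959238, each as a single exon, with 9951 bases between them. Their coding sequences were 1923 and 1926 bases long and 99.43% identical. Of all 50-base words in the Hspa1a transcript, 58.81% also occurred in Hspa1b, so reads of the pair cannot be fully told apart, and each value of the pair is uncertain in how it was split. The 250 bases before their RefSeq starts are printed since these windows hold the heat shock element that the pair shares. They are written 5′ to 3′ on the minus strand (RefSeq, GRCm38.p6), and capitals mark the element.
Hspa1a, chr17:34972157-34972406: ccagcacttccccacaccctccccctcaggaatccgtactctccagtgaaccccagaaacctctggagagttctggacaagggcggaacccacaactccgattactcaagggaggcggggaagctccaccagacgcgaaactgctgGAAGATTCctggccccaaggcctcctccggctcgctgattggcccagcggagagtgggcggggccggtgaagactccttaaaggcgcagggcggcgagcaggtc
Hspa1b, chr17:34959239-34959488: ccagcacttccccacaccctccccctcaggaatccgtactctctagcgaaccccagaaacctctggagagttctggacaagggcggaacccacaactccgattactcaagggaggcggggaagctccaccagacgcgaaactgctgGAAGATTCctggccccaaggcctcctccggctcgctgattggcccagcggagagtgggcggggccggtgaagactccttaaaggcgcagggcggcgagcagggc
Both windows hold the element GAAGATTC starting 104 bases before the start. The windows differ at 3 of 250 positions, which lie 207, 204, and 2 bases before the start, so none is in the element.

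The patterns searched were GAANNTTC and TTCNNGAA, each read on both strands, and a longer element made by a further alternating unit, which contains both of them. GAANNTTC occurred in 6.69% of 32851 RefSeq promoter windows of the same length, TTCNNGAA in 7.17%, and the longer element in 0.466%. Of the 10 genes, 6 had a promoter entry, in 9 windows. The genes without an entry are Hspa8, Hsp90aa1, Hsp90ab1, and Hsf1. Hspd1 and Hspe1 are transcribed in opposite directions from neighboring starts on chromosome 1, and an 18-base run of overlapping elements begins 89 bases before the Hspe1 start. It is also in the window of 1 of the 2 Hspd1 starts. Hsph1 has TTCNNGAA 33 bases before its most upstream start. These 2 elements are printed with their flanks, as 30 bases each, since they lie in exons of some annotated transcripts.
Hspe1, plus strand, chr1:55088053-55088082: ggtccgTTCTAGAACCTTCCGGAAggcccc
Hsph1, minus strand, chr5:149636351-149636380: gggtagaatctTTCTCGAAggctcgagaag
Neither pattern was found in the 2 Dnajb1 windows. A match is only a match of letters, and binding of HSF1 was not measured.

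Levels are given as CPM, each count divided by the library's total after scaling with TMM factors. The totals ran from 18021375 to 29750702 counts per library. Cdkn1a, a p53 target that encodes the cell cycle inhibitor p21, was 51.6 ± 13.4 CPM in p53+/+, 41.8 ± 8.97 in p53R248W/+, and 12.3 ± 4.91 in p53-/- libraries (SD, n = 3 each). Trp53 counts were from 112 to 129 CPM in p53-/- and from 124.5 to 376 CPM in p53+/+ libraries, and a count over the whole gene does not show which exons were read. The surface marker genes Kit and Ly6a (Sca1) were read in every library, at no less than 427 and 149.5 CPM. Some libraries stood apart. The p53+/+ library 2 and p53R248W/+ library 2 held Ngp, a neutrophil granule gene, at 1003 and 584 CPM, against 1.08 to 22.6 CPM in the other 7. The sum of 4 Y-linked genes was 110, 69.8, and 184.5 CPM in p53+/+ library 2 and p53R248W/+ libraries 2 and 3 and under 0.22 CPM in the other 6, among them all p53-/- libraries. In p53+/+ library 2 and p53R248W/+ library 2, Xist was read as well, at 64.95 and 149 CPM, so counts typical of both sexes were in each, and the source of this mixture was not tested.

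The inducible HSP70 genes were low in all p53-/- libraries and varied widely within the other genotypes. In p53+/+ LSKs Hspa1a was 2.37, 34.2, and 99.4 CPM, in p53R248W/+ LSKs 4.60, 17.6, and 82.1 CPM, and in p53-/- LSKs 0.707, 0.994, and 0.884 CPM (libraries 1, 2, and 3 in this and all later lists). The 3 p53-/- values rest on 13, 22, and 18 counts. All p53-/- libraries lay below every other library, while library 1 of p53+/+ and of p53R248W/+ came close to them. The fitted log2 fold change of p53-/- against p53+/+ was −5.70 ± 1.30 (SE), and that of p53R248W/+ against p53-/- was 5.32 ± 1.29. With library 3 of p53R248W/+ left out, the latter was 3.67, and with library 3 of p53+/+ left out, the former was −4.39.

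Hspa1b followed the same pattern. It was 1.96, 56.4, and 185 CPM in p53+/+, 6.86, 31.7, and 150 CPM in p53R248W/+, and 1.63, 2.94, and 0.589 CPM in p53-/- libraries. One of the p53-/- values lay above the lowest p53+/+ value, so these groups overlapped, while all p53R248W/+ values lay above all p53-/- values. The log2 fold change of p53-/- against p53+/+ was −5.54 ± 1.44. With the counts of Hspa1a and Hspa1b summed, it was −5.60 for the pair.

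Within p53+/+ libraries the highest Hspa1a value was 42.0 times the lowest, and within p53R248W/+ 17.8 times, against 1.40 times within p53-/-. For Hspa1b these ratios were 94.2, 21.9, and 4.98. Over the 3 genotypes the pooled SD of log2 CPM was 1.99 for Hspa1a and 2.41 for Hspa1b, against a median of 0.313 over all genes tested. These spreads rank Hspa1a at 48 and Hspa1b at 30 of 12625 genes. The other 8 genes had a pooled SD from 0.258 for Dnajb1 to 0.510 for Hspe1. In p53+/+ and in p53R248W/+, library 1 was the lowest and library 3 the highest for both genes, and the labels do not say what the library number stands for.

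The Hspa1a values were 34.2, 17.6, and 82.1 CPM in the 3 libraries with Y-linked counts, so no low value was among them. Among the 6 libraries without Y-linked counts, Hspa1a was 2.37 and 99.4 CPM in p53+/+, 4.60 CPM in p53R248W/+, and below 1 CPM in p53-/-. In those libraries alone the log2 fold change of p53-/- against p53+/+ was −5.87 for Hspa1a. That of p53R248W/+ against p53-/- was 2.39 for Hspa1a and 1.96 for Hspa1b, against 5.32 and 5.18 in all libraries. For p53R248W/+ against p53+/+ Hspa1a was −3.48 there and −0.38 ± 1.00 in all libraries. Only library 1 of p53R248W/+ was left in that subset. With both libraries high in Ngp left out, p53R248W/+ against p53-/- was 5.62 for Hspa1a, and p53-/- against p53+/+ rests on the same libraries as the subset without Y-linked counts. The part of sex and of neutrophil RNA in the Hspa1a values was not tested.

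**Figure D1:**
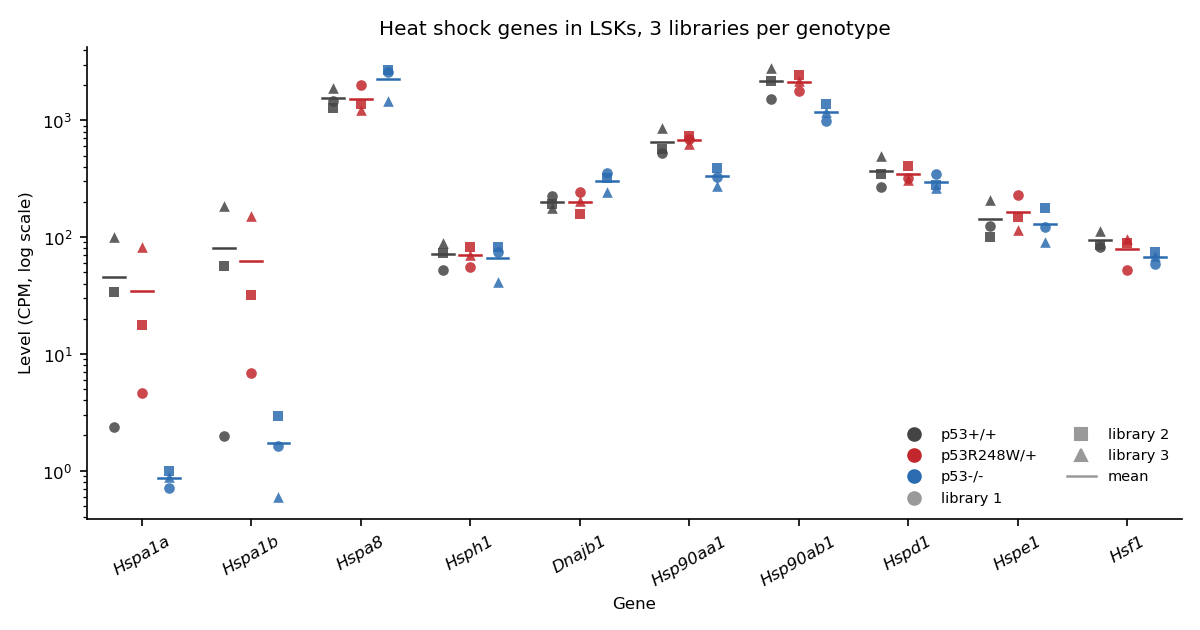
Levels of the 10 heat shock genes in each library (y axis, CPM on a log scale), by gene on the x axis, with p53+/+, p53R248W/+, and p53-/- side by side, a marker shape for each library number, and a line at the mean of 3 libraries. Hspa1a and Hspa1b spread over more than an order of magnitude in p53+/+ and p53R248W/+ and lie at or below 2.94 CPM in p53-/-, while the other 8 genes stay within 3.13-fold from the lowest to the highest of the 9 libraries.

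Hspa8 encodes HSC70, the constitutive cytosolic HSP70. Its level was 1477, 1273, and 1881 CPM in p53+/+, 2002, 1383, and 1217 CPM in p53R248W/+, and 2597, 2714, and 1474 CPM in p53-/- libraries. In p53-/-, 2 of the 3 libraries lay above all p53+/+ libraries and the third lay among them. The log2 fold change was 0.55 ± 0.26 for p53-/- against p53+/+, opposite in sign to those of Hspa1a and Hspa1b. For p53R248W/+ against p53-/- it was −0.56 ± 0.26 and did not pass the test (edgeR adjusted p = 0.244).

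To compare levels between genes, CPM was divided by the deposited gene length in kb. On that scale, Hspa1a and Hspa1b together made up 0.220%, 5.07%, and 10.2% of the sum of Hspa1a, Hspa1b, and Hspa8 in p53+/+ libraries, and 0.428%, 2.60%, and 12.5% in p53R248W/+. In p53-/- libraries they made up 0.0675%, 0.108%, and 0.0750%. Hspa8 held the rest, the larger part in each of the 9 libraries. The HSP70 sum itself was 779 ± 191 CPM per kb in p53+/+, 764 ± 166 in p53R248W/+, and 1076 ± 326 in p53-/- (SD, n = 3 each), and these ranges overlapped.

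**Figure D2:**
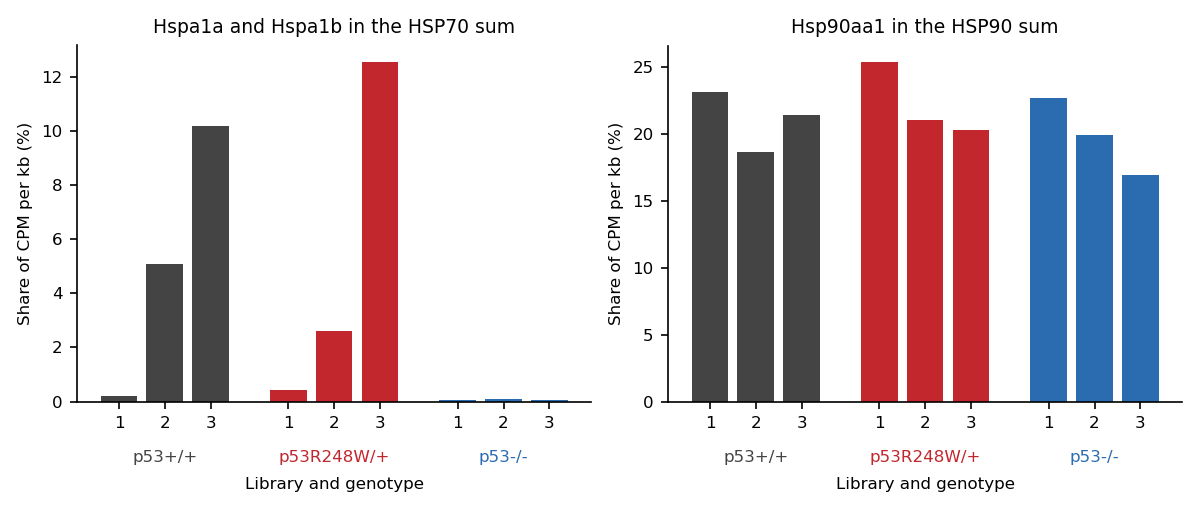
Shares of CPM per kb (y axes, percent) in each library, with the libraries of p53+/+, p53R248W/+, and p53-/- on the x axes. On the left, Hspa1a and Hspa1b in the sum of Hspa1a, Hspa1b, and Hspa8 reach 10.2% and 12.5% in library 3 of p53+/+ and p53R248W/+ and stay at or below 0.108% in p53-/-. On the right, Hsp90aa1 in the sum of Hsp90aa1 and Hsp90ab1 lies between 16.9% and 25.4% in the 9 libraries.

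Dnajb1 and Hsph1 encode partners of HSP70. DNAJB1 (HSP40) stimulates the ATPase of HSP70 and hands it unfolded proteins. Dnajb1 was 224, 193, and 179 CPM in p53+/+, 241, 158, and 203 CPM in p53R248W/+, and 351, 321, and 241 CPM in p53-/- libraries. The lowest p53-/- value (241.39 CPM) lay only just above the highest p53R248W/+ value (241.27 CPM), so the groups did not overlap but by a margin far under their spread. The log2 fold change was 0.62 ± 0.20 for p53-/- against p53+/+. For p53R248W/+ against p53-/- it was −0.60 ± 0.20 and did not pass the test (edgeR adjusted p = 0.117).

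HSPH1 (HSP110) is a nucleotide exchange factor that resets HSP70. Hsph1 was 52.7, 73.7, and 89.0 CPM in p53+/+, 56.0, 83.0, and 70.8 CPM in p53R248W/+, and 74.2, 81.6, and 41.2 CPM in p53-/- libraries. The 3 genotypes overlapped. The log2 fold change was −0.13 ± 0.27 for p53-/- against p53+/+ and 0.09 ± 0.27 for p53R248W/+ against p53-/- (edgeR adjusted p = 0.887).

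Both cytosolic HSP90 genes were lower in every p53-/- library than in any other library. Hsp90aa1, the stress-inducible HSP90, was 521, 564, and 864 CPM in p53+/+, 695, 734, and 629 CPM in p53R248W/+, and 331, 388, and 276 CPM in p53-/- libraries. Hsp90ab1, the constitutive HSP90, was 1521, 2158, and 2786 CPM in p53+/+, 1799, 2427, and 2166 CPM in p53R248W/+, and 989, 1369, and 1190 CPM in p53-/- libraries. The log2 fold changes of p53-/- against p53+/+ were −0.97 ± 0.21 for Hsp90aa1 and −0.87 ± 0.22 for Hsp90ab1, much smaller than those of Hspa1a and Hspa1b. Among the libraries without Y-linked counts they were −1.06 and −0.86.

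In p53R248W/+ against p53-/- LSKs, Hsp90aa1 was 1.05 ± 0.21 higher on the log2 scale and passed the test (edgeR adjusted p = 0.0264), and Hsp90ab1 was 0.85 ± 0.22 higher and did not (edgeR adjusted p = 0.0594). Hsp90ab1 passed it with DESeq2 (adjusted p = 0.00778), with the library number as a block (edgeR adjusted p = 0.0267), and without library 1 of p53+/+ or of p53R248W/+ (edgeR adjusted p = 0.0404 and 0.0250). This comparison shares its p53-/- libraries with the comparison that chose the set. The Hsp90aa1 call was lost, with edgeR adjusted p from 0.0542 to 0.0957 and a log2 fold change from 0.93 to 1.18, when p53R248W/+ library 2 or 3 or any 1 of the p53-/- libraries was left out. Without both libraries high in Ngp the adjusted p was 0.121, and among the libraries without Y-linked counts it was 0.149. The 2 genes kept their proportion, with Hsp90aa1 at 21.1% ± 2.26 of their sum per kb in p53+/+, 22.2% ± 2.73 in p53R248W/+, and 19.9% ± 2.90 in p53-/- (SD, n = 3 each). The HSP90 sum was 1088 ± 314, 1091 ± 132, and 588 ± 87.2 CPM per kb in these genotypes, with every p53-/- library below all others.

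Hspd1 (HSP60) and Hspe1 (HSP10) form the mitochondrial chaperonin and lie head to head on chromosome 1. Hspd1 was 268, 346, and 496 CPM in p53+/+, 323, 404, and 311 CPM in p53R248W/+, and 347, 282, and 265 CPM in p53-/- libraries. Hspe1 was 124, 101, and 208 CPM in p53+/+, 229.8, 149, and 115 CPM in p53R248W/+, and 122, 177, and 90.7 CPM in p53-/- libraries. The genotypes overlapped for both genes. The log2 fold changes of p53-/- against p53+/+ were −0.31 ± 0.22 for Hspd1 and −0.15 ± 0.33 for Hspe1. Those of p53R248W/+ against p53-/- were 0.22 ± 0.22 and 0.34 ± 0.33 (edgeR adjusted p = 0.629 and 0.600).

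Hsf1, the transcription factor itself, was 83.1, 85.3, and 114 CPM in p53+/+, 52.4, 88.2, and 97.2 CPM in p53R248W/+, and 58.6, 74.1, and 69.1 CPM in p53-/- libraries. Every p53-/- library lay below every p53+/+ library, and p53R248W/+ overlapped with both. The log2 fold change was −0.48 ± 0.23 for p53-/- against p53+/+ and 0.24 ± 0.23 for p53R248W/+ against p53-/- (edgeR adjusted p = 0.604). HSF1 is regulated largely at the protein level, which RNA-seq does not read.

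Between p53R248W/+ and p53+/+ LSKs, no heat shock gene was past the threshold in edgeR. The log2 fold changes of the 8 genes tested ran from −0.25 ± 0.23 for Hsf1 to 0.19 ± 0.33 for Hspe1, with SEs from 0.20 to 0.33 and edgeR adjusted p = 1.00 for each. None had an unadjusted p below 0.05. Other tools gave 0 calls as well, and of all genes 0.00792% were called higher and 0% lower. The ranges of the 2 genotypes overlapped for all 10 genes, against 2.66% of all genes with every p53R248W/+ library above and 2.38% with every one below. For Hspa1a the log2 fold change was −0.38 ± 1.00, and it ran from −2.03 without p53R248W/+ library 3 to 0.93 without p53+/+ library 3. A difference of several fold in either direction could not be told from the spread at this size. The fit behind that spread did not pair libraries by number, though Hspa1a rose from library 1 to library 3 in both genotypes.

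Of the 8 genes tested in p53R248W/+ against p53-/-, 1 (Hsp90aa1) was called higher and 0 lower, against 2.34% of all genes called higher and 1.1% lower. Hspa1a was past the threshold there too, which is not counted, since its low p53-/- values chose the set. All p53R248W/+ libraries lay above all p53-/- libraries for 4 genes (Hspa1a, Hspa1b, Hsp90aa1, Hsp90ab1) and below for 1 (Dnajb1), against 12.1% and 12% of all genes. In p53-/- against p53+/+, where the set was chosen, 2 genes (Hspa1a, Hsp90aa1) were past the threshold and lower and 0 higher, against 2.25% and 1.25% of all genes, and nothing is read from that count. All p53-/- libraries lay below all p53+/+ libraries for 4 genes (Hspa1a, Hsp90aa1, Hsp90ab1, Hsf1) and above for 1 (Dnajb1), against 16% and 15.4% of all genes. The median log2 fold change of the 10 genes was −0.40 there, 0.29 in p53R248W/+ against p53-/-, and −0.03 in p53R248W/+ against p53+/+, and the medians over all genes were 0.00, 0.02, and 0.01. Against p53-/-, these medians and the counts of genes without overlap include Hspa1a, which chose the set, and Hspa1b. They are therefore no support for a difference from all genes. The numbers past the threshold, Hspa1a and Hspa1b included, depended on single libraries. In both comparisons with p53-/-, 5 of the 10 genes were past it without p53R248W/+ library 1, 4 without p53+/+ library 1, and 0 without any 1 of the p53-/- libraries. The count was also 0 without p53R248W/+ library 2 or 3 in p53R248W/+ against p53-/-, and without p53+/+ library 2 or 3 in p53-/- against p53+/+. In p53R248W/+ against p53-/- it was 1 without p53+/+ library 2 or 3.

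**Figure D3:**
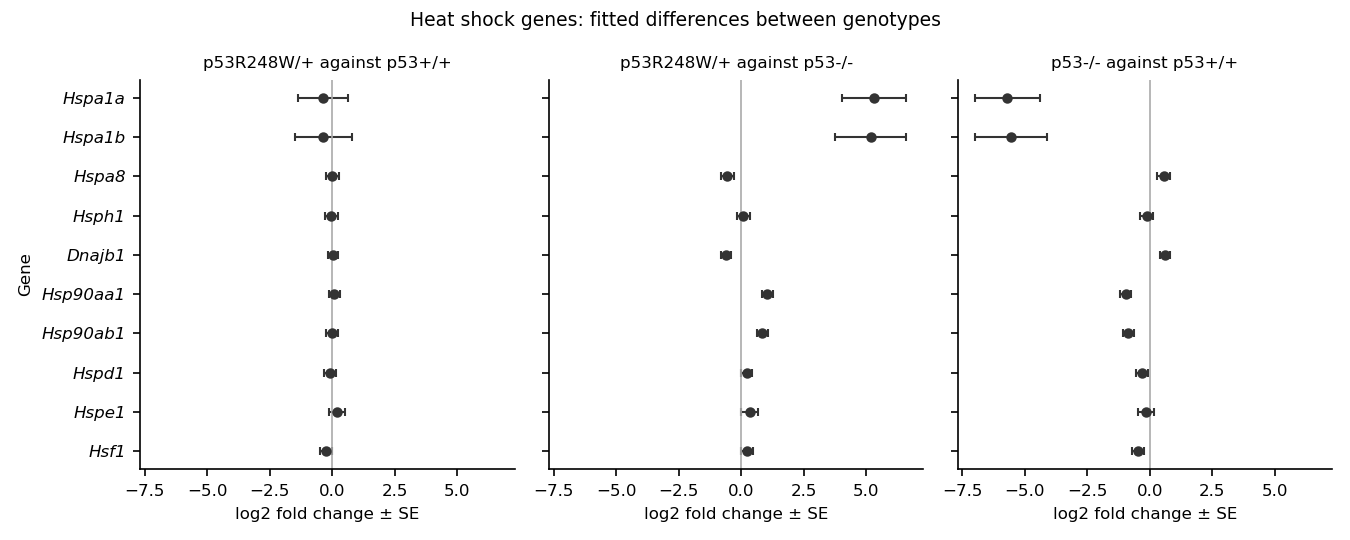
Fitted log2 fold changes (x axes) of the 10 genes (y axis) in each comparison, with bars of 1 SE from the edgeR fit to all 9 libraries. Hspa1a and Hspa1b lie beyond 5 in size against p53-/- with SEs of 1.29 to 1.44, the other 8 genes lie within 1.05 in size, and Hspa8 and Dnajb1 lie on the opposite side of 0 from Hspa1a.

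Ordered by CPM per kb in p53+/+ libraries, Hsp90ab1 (860 ± 252) and Hspa8 (734 ± 147) came first, with overlapping ranges. Hsp90aa1 (228 ± 65.6), Hspe1 (188 ± 73.7), and Hspd1 (159 ± 49.7) followed, each overlapping with the next. Dnajb1 (61.6 ± 7.22), Hsf1 (46.6 ± 8.54), Hspa1b (28.9 ± 33.5), Hsph1 (20.6 ± 5.25), and Hspa1a (16.2 ± 17.7) were lowest, and each of these neighbors overlapped (SD, n = 3). In p53R248W/+ libraries the order was the same. In p53-/- libraries, Hspa8 (1075 ± 325) lay above Hsp90ab1 (472 ± 75.9) without overlap, Hsp90aa1 (116 ± 19.8) lay below Hspe1 (169 ± 57.1) and Hspd1 (128 ± 18.4) with overlap between neighbors, and Hspa1b (0.612 ± 0.419) and Hspa1a (0.308 ± 0.0517) were last, below Hsph1 without overlap.

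Other genes that HSF1 is known to induce did not share the low p53-/- values of Hspa1a. Of 18 such genes listed, 17 were in the table, and the small heat shock gene Hspb1 was not. In p53-/- against p53+/+, 1 of 17 was called lower and 0 higher, 9 fold changes were below 0 and 8 above, and the median log2 fold change was 0.00. Every p53-/- library lay above every p53+/+ library for 6 of the 17 and below for 3, against 15.4% and 16% of all genes, of which 2.25% were called lower and 1.25% higher.

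The 6 genes that lay above were Hspb8, Cryab, Dnaja4, Dnajb4, Bag3, and Chordc1, picked out after their values were seen. Bag3 encodes a co-chaperone that links HSP70 to autophagy and is a common readout of HSF1 activity. It was 11.5, 11.9, and 13.1 CPM in p53+/+, 8.62, 14.8, and 10.4 CPM in p53R248W/+, and 16.9, 16.2, and 14.8 CPM in p53-/- libraries (log2 fold change 0.39 ± 0.25 for p53-/- against p53+/+, edgeR adjusted p = 0.360). Dnajb4, another J protein, had a log2 fold change of 0.98 ± 0.25 (edgeR adjusted p = 0.0506) and Chordc1, an HSP90 partner, one of 0.75 ± 0.21 (edgeR adjusted p = 0.0685). None of the 6 passed the test.

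The remaining chaperone lists were called at about the share of all genes. Over all 7 lists, 93 of 99 genes were in the table, and 0 were called in p53R248W/+ against p53+/+ by edgeR, DESeq2, or limma-voom, with 2 at an unadjusted p below 0.05 in edgeR. In p53R248W/+ against p53-/-, 3 were called higher and 1 lower, and in p53-/- against p53+/+, 2 higher and 2 lower, which is 4.30% of the 93 in each. Over all genes 2.34% were called higher and 1.1% lower in the first of these comparisons, and 1.25% and 2.25% in the second. At an unadjusted p below 0.05 there were 16 and 24 of the 93. The share of all genes at that level is not given here, so nothing is read from these 2 counts. All libraries lay above for 15 of the 93 and below for 12 in the first comparison, against 12.1% and 12% of all genes. In the second they lay above for 19 and below for 17, against 15.4% and 16% of all genes. The median log2 fold changes were 0.05 and 0.01, against 0.02 and 0.00 over all genes. Subunits of the cytosolic chaperonin TRiC and of prefoldin (14 genes), other HSP90 co-chaperones (13 genes), and other mitochondrial chaperones and proteases (12 genes) had 0 calls in edgeR in each of the 3 comparisons, with 0, 2, and 5 genes at an unadjusted p below 0.05 in p53-/- against p53+/+. The HSF family list had only Hsf2 and Hsbp1 in the table, and neither was called.

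In the list of other HSP70 genes, J proteins, and co-chaperones, 23 of 25 genes were in the table. Dnajc2, which encodes a ribosome-bound J protein, was 65.7, 89.9, and 134 CPM in p53+/+, 55.3, 108, and 99.96 CPM in p53R248W/+, and 28.3, 35.7, and 34.6 CPM in p53-/- libraries. It fell by 1.55 ± 0.29 on the log2 scale in p53-/- against p53+/+ (edgeR adjusted p = 0.0232) and was 1.42 ± 0.29 higher in p53R248W/+ than in p53-/- (edgeR adjusted p = 0.0281). Hspa13, a microsomal HSP70 relative, was 36.2 ± 4.34 CPM in p53+/+ and 82.0 ± 13.6 CPM in p53-/- libraries (SD, n = 3), a rise of 1.18 ± 0.27 (edgeR adjusted p = 0.0394). Dnajc9, a J protein that also binds histones, was 287 ± 22.8 CPM in p53R248W/+ and 174.5 ± 9.42 CPM in p53-/- libraries (SD, n = 3), higher by 0.72 ± 0.16 (edgeR adjusted p = 0.0377).

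Among 12 ER chaperones, Dnajb9, an ER J protein induced by unfolded proteins in the ER, was the only one called. It was 41.3, 25.1, and 24.2 CPM in p53+/+, 44.0, 29.7, and 24.4 CPM in p53R248W/+, and 72.3, 82.5, and 87.3 CPM in p53-/- libraries. The log2 fold change was 1.42 ± 0.26 for p53-/- against p53+/+ (edgeR adjusted p = 0.0214) and −1.30 ± 0.26 for p53R248W/+ against p53-/- (edgeR adjusted p = 0.0258). Hsp90b1, the ER HSP90, was picked out after its values were seen. Its log2 fold change was −0.91 ± 0.24 for p53-/- against p53+/+ (edgeR adjusted p = 0.0535). For p53R248W/+ against p53-/- it was 0.94 ± 0.24 (edgeR adjusted p = 0.0507), so neither passed the test. Of the 12 genes, 8 fold changes were below 0 and 4 above in p53-/- against p53+/+. The calls of Dnajc2, Dnajc9, Hspa13, and Dnajb9 kept their sign in every fit, and each was lost when any 1 of the p53-/- libraries was left out. Calls of p53R248W/+ against p53-/- were also lost without p53R248W/+ library 2 or 3, and calls of p53-/- against p53+/+ without p53+/+ library 2 or 3, with edgeR adjusted p up to 0.169. That of Hspa13 was lost without p53+/+ library 1 as well, and that of Dnajc9 without p53+/+ library 2.

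**Figure D4:**
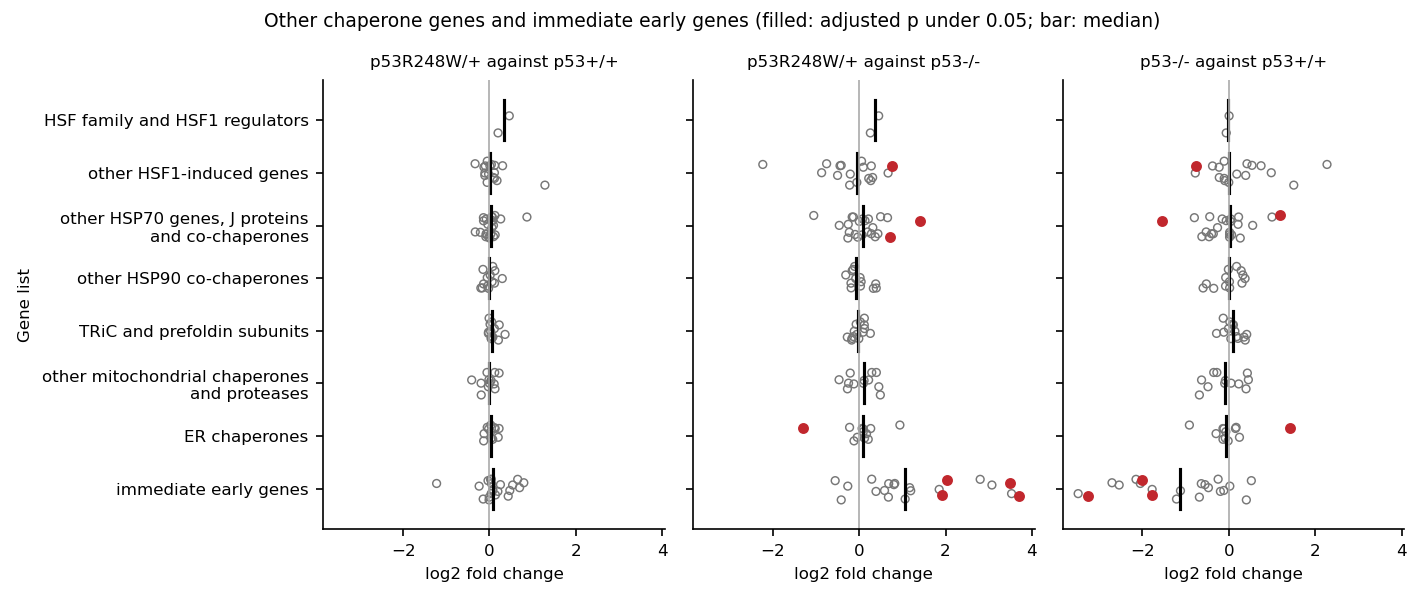
Log2 fold changes (x axes) of the genes of each list (y axis) in the 3 comparisons, with filled points for an edgeR adjusted p below 0.05, open points for the rest, and a bar at the median. Chaperone lists have medians near 0 with 4 filled points in each comparison with p53-/-, and immediate early genes have medians of 1.06 and −1.12 there.

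Summed levels of immediate early genes and of granulocyte and monocyte markers were lowest in p53-/- libraries, where Hspa1a was low. Immediate early genes, which respond within minutes to signals and to cell handling, summed to 2657 to 7096 CPM in p53+/+, 2814 to 9147 CPM in p53R248W/+, and 1991 to 2604 CPM in p53-/- libraries. Of 21 in the table, 3 were called lower and 0 higher in p53-/- against p53+/+ (2.25% and 1.25% of all genes), with a median log2 fold change of −1.12. In p53R248W/+ against p53-/-, 4 were called higher and 0 lower (2.34% and 1.1% of all genes). Fos was 1267, 1043, and 259 CPM in p53+/+, 2118, 288, and 1060 CPM in p53R248W/+, and 98.0, 91.7, and 76.8 CPM in p53-/- libraries. Jun was 863, 786, and 483 CPM, 717, 496, and 1131 CPM, and 200.1, 257, and 166 CPM in the same order, Egr1 453, 319, and 66.8 CPM, 527, 67.1, and 290.4 CPM, and 61.6, 98.8, and 84.5 CPM, and Dusp1 886, 470.5, and 165 CPM, 1720, 195, and 478 CPM, and 129.5, 128.5, and 84.8 CPM. Within p53+/+ these 4 genes were highest in library 1, where Hspa1a was lowest, and lowest in library 3, where Hspa1a was highest. In p53R248W/+ this order did not hold: all 4 were lowest in library 2, and Jun was highest in library 3, where Hspa1a was highest.

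Granulocyte and monocyte markers summed to 2446 to 7815 CPM in p53+/+, 3934 to 9155 CPM in p53R248W/+, and 1780 to 2097 CPM in p53-/- libraries. All 10 had a fold change below 0 in p53-/- against p53+/+, and 0 were called in edgeR, with 6 at an unadjusted p below 0.05. In p53R248W/+ against p53-/-, 1 of them, Mpo, was called higher. None of the 10 was at 0 in any library, but in p53-/- libraries Camp and Ltf were at most 0.949 CPM and Ngp at most 2.39 CPM. In p53+/+ and in p53R248W/+ these genes were highest in library 2. Mpo, at 1125 to 1456 CPM, made up the larger part of each p53-/- sum. LSK markers summed to 3796 to 4811 CPM in p53+/+, 4188 to 4608 CPM in p53R248W/+, and 4751 to 5296 CPM in p53-/- libraries, with 1 of 11, Hlf, called higher in p53-/- against p53+/+ and Hlf and Meis1 among those called lower in p53R248W/+ against p53-/-. B cell, T and NK cell, erythroid, and megakaryocyte lists had 0 calls in p53-/- against p53+/+, with 2, 2, 0, and 3 genes at an unadjusted p below 0.05, and 1 call in p53R248W/+ against p53-/-, Nkg7, which was higher. Cd3e, Cd3d, Cd3g, Pax5, Ighm, and the globin genes were not in the table. The part of these groups in the heat shock values was not tested, and in bulk RNA fewer cells of a type and less RNA per cell cannot be told apart.

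The genes whose log2 CPM was most like that of Hspa1a over the 9 libraries were taken from 9678 genes with an average log2 CPM of at least 3. They were Hspa1b (Pearson r = 0.978), Gtf2h1 (0.976), Nol8 (0.972), Gtpbp6 (0.969), and Cwf19l1 (0.967). These are descriptions over libraries of 3 genotypes that share the low p53-/- group. The last 4 varied far less than Hspa1a, with Gtf2h1 from 29.0 to 62.2 CPM, Nol8 from 14.1 to 36.1, Gtpbp6 from 5.06 to 13.9, and Cwf19l1 from 24.4 to 32.7. Of the other heat shock genes, Hsp90ab1 (r = 0.929, rank 69) and Hsp90aa1 (r = 0.824, rank 696) came nearest, followed by Hsf1 (0.757), Hspd1 (0.649), Hsph1 (0.493), and Hspe1 (0.151), while Hspa8 (−0.571) and Dnajb1 (−0.803) ran the opposite way. Trp53 had r = 0.902 (rank 196) and Cdkn1a 0.595. Jun had r = 0.691, Fos 0.488, Dusp1 0.252, and Egr1 0.152.

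Counts of some of these genes are uncertain for a further reason. Of the 50-base words in the transcripts, 47.49% of Hsp90aa1, 39.74% of Hspd1, 38.58% of Hspa8, and 18.39% of Hspe1 also occur in another annotated gene. The share was 3.44% for Hsp90ab1, 0.381% for Dnajb1, and 0% for Hsph1 and Hsf1. How reads that match more than 1 gene were counted is not given in the sources used here. The other genes lie at chr9:40800984-40810087 (Hspa8), chr5:149614287-149636376 (Hsph1), chr8:83608193-83612653 (Dnajb1), chr12:110690605-110702728 (Hsp90aa1), chr17:45567775-45573271 (Hsp90ab1), chr1:55077835-55088243 (Hspd1), chr1:55088132-55091307 (Hspe1), and chr15:76477422-76501913 (Hsf1) in GENCODE M21 on GRCm38. Values are deposited counts per gene, and the annotation used for counting is not given, so it may differ from GENCODE M21.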

How the data were processed

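RNA-seq of LSKs was done by the authors with oligo(dT) beads and random hexamers per the methods, while the labels name a SMART-Seq v4 kit. The submitters' processing notes list STAR 2.5.2b, Subread 1.5.0 with featureCounts, edgeR, and mm10 (also BWA and SICER). The annotation and strand setting are not given in the sources used here. The authors deposited whole-number read counts per gene and a gene length. The same deposited table gives, for each pair of genotypes, a log2 fold change with its p-value and FDR by the authors, and none of these was used. The lowest count total of a gene was 37. The 2 ChIP-seq samples were not analysed here.

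Counts were fitted with edgeR 4.0.16 (R 4.3.3), with filterByExpr, TMM factors (0.935 to 1.04), 1 quasi-likelihood model of 3 genotypes over 9 libraries, and Benjamini-Hochberg adjustment over 12625 genes at 0.05. The common biological coefficient of variation was 0.281. Total counts were 18021375 to 29750702 per library, and the SDs cover counting error and differences between libraries. No sample column was left unmapped.

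The 10 genes, the lists, and the tests were chosen with earlier results of these data known. Named genes were the 10 members, up to 3 called genes with the largest fold change per list and comparison, Fos, Jun, Egr1, and Dusp1, Trp53 and Cdkn1a, and the 5 genes most correlated with Hspa1a. The alternatives tried included limma-voom (limma 3.58.1) and DESeq2 1.42.0 as other tools, RLE or upper-quartile factors, no filter, at least 10 counts in every library, a replicate block, only the libraries compared, and each library left out. The sum of Hspa1a and Hspa1b, and fits without libraries with Y-linked counts or with over 100 CPM of Ngp, were chosen after seeing the data. Python 3.11.15 made the tables. Values of some named genes are not reported here.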

Additional observations from a re-analysis of the deposited data

How the results depend on the processing

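Over 47 results and 20 alternative settings, 66 of 937 alternative values no longer passed the threshold and 6 newly passed it. Another 83 moved, by over 1.5 times for a count or by more than the pooled SD between libraries for a fold change described without a test. Of 757 alternative fold changes, 36 had the other sign, 9 of them for genes described without a test, which lay within that SD of their value. Where a value changed, the cause was not tested. The numbers of heat shock genes and of chaperone list genes called in p53R248W/+ against p53+/+ were 0 in all settings, and the number of all genes was 1 in the edgeR fit, 6 with DESeq2, 0 with at least 10 counts in every library, 2 with the replicate block, and 1 with any library left out.

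The calls in p53R248W/+ against p53-/- among the 10 heat shock genes, the 93 list genes, and all genes were 2, 4, and 434 in the edgeR fit. They were 5, 10, and 1326 with DESeq2. With both libraries high in Ngp left out they were 0, 0, and 77, and among the libraries without Y-linked counts 0, 0, and 46. With only the 6 libraries compared, 2 list genes and 208 of all genes were called. Among the 10 genes, limma-voom called 1, and 1 was called with Hspa1a and Hspa1b summed. Leaving out 1 library gave 0 to 5, 0 to 10, and 77 (without p53R248W/+ library 3) to 1559 (without p53R248W/+ library 1).

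The set was chosen by Hspa1a in p53-/- against p53+/+, so nothing is read from the counts of the 10 genes in this comparison. The calls there were 2, 4, and 442. They were 5, 13, and 1542 with DESeq2, and 4, 11, and 894 with only the 6 libraries compared. With both libraries high in Ngp left out they were 0, 0, and 59. The fit without Y-linked counts holds the same p53+/+ and p53-/- libraries and differs only by leaving out p53R248W/+ library 3 as well. The counts thus also depend on which p53R248W/+ libraries are in the shared fit. With at least 10 counts in every library 4 and 8 were called among the first 2 sets, limma-voom called 1 of the 10 genes, and 264 of all genes were called among the libraries without Y-linked counts. Leaving out 1 library gave 0 to 5, 0 to 14, and 37 (without p53+/+ library 3) to 1485 (without p53R248W/+ library 1).

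The replicate block gave 4, 7, and 672 calls in p53R248W/+ against p53-/- and 4, 7, and 882 in p53-/- against p53+/+. Deviations from the group means of same-numbered p53+/+ and p53R248W/+ libraries correlated at 0.361, 0.544, and 0.0388 over genes. Those of p53-/- libraries with their numbers correlated at −0.108 to 0.132. The edgeR fit used for the results did not pair libraries by number, and what libraries of the same number share was not tested. Each p53+/+ and p53R248W/+ library correlated best with its own number among these 2 genotypes. The sample titles also give libraries 1 and 2 of these genotypes like names, and p53-/- libraries names of another form, without saying what the names mark. With the block Hsp90ab1 passed the test in p53R248W/+ against p53-/- (edgeR adjusted p = 0.0267), as it did with DESeq2 (adjusted p = 0.00778) and without library 1 of p53+/+ (edgeR 0.0404) or of p53R248W/+ (edgeR 0.0250). Dnajb1 passed with DESeq2 (adjusted p = 0.0462) and without p53R248W/+ library 1 (edgeR 0.0331).

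Fold changes near 0 changed sign. In p53R248W/+ against p53+/+ the log2 fold change with limma-voom was −0.00016 for Dnajb1 and 0.017 for Hsp90ab1, and that of Hsp90ab1 with the replicate block was 0.0078. Among the libraries without Y-linked counts it was 0.24 for Hspa8 and −0.0095 for Hsp90aa1, and without both libraries high in Ngp −0.079 for Hsp90aa1. Leaving out 1 library gave −0.26 to 0.16 for Hspa8, −0.22 to 0.15 for Hsph1, −0.15 to 0.16 for Dnajb1, −0.058 to 0.34 for Hsp90aa1, −0.21 to 0.21 for Hsp90ab1, −0.28 to 0.17 for Hspd1, and −0.14 to 0.55 for Hspe1. For p53R248W/+ against p53-/- it gave −0.16 to 0.28 for Hsph1 and −0.0086 to 0.63 for Hspe1. There the libraries without Y-linked counts gave −0.25 for Hsph1 and −0.38 for Hsf1, and the fit without both libraries high in Ngp gave −0.068 for Hsph1. Without p53+/+ library 3, Hspa1a and Hspa1b were 0.93 and 1.11 in p53R248W/+ against p53+/+, and without p53R248W/+ library 1 they were 0.12 and 0.15, while Hspa1b with limma-voom was 0.19. In p53-/- against p53+/+, Hsph1 was 0.06 and Hspe1 0.21 without p53+/+ library 3, and 0.12 and 0.05 without p53-/- library 3. Counts of 13 to 22 set the precision of Hspa1a in p53-/- libraries.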
